A study of Homo sapiens with 15 samples.

Results

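Glycolysis and the response to low oxygen were followed through 32 genes across 15 RNA sequencing libraries of MCF-10A, an immortalised breast epithelial line of human origin that does not form tumours. The genes are a set list of glycolytic enzymes, their transporters and regulators, and targets of the hypoxia-inducible factors (HIF), matched by symbol to their Ensembl identifiers. All 32 were found among the 60721 genes of the count table. The filter on low counts left 17457 genes for testing, among them 31 of the 32; CA9 did not pass.

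The libraries came from 5 genotypes with 3 biological replicates each. Parental MCF-10A cells and cells given an empty vector were the controls, with no NF1 guide. The remaining lines were NF1 mutants made with guide RNA 1, with guide RNA 2, or with both guides. NF1 encodes neurofibromin, which switches off RAS. All cells were untreated and shared 1 medium of DMEM/F12 with 10% horse serum, EGF at 20 ng/mL, hydrocortisone at 0.5 ug/mL, cholera toxin at 100 ng/mL and insulin at 10 ug/mL, at 37 °C in 5% CO2. The labels name no oxygen level and no low-oxygen treatment, and do not say whether an edited line was a clone or a pool. P-values measure only the spread between these replicate libraries.

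Glycolysis takes glucose into the cell, phosphorylates it, splits it and converts it to pyruvate, which can leave the cell as lactate. HIF is a pair of subunits whose alpha part is marked for destruction by prolyl hydroxylases while oxygen is present. When oxygen falls, HIF persists, binds short DNA sites and raises transcription of most glycolytic steps, of blood vessel growth factors and of its own hydroxylases; growth factor and RAS signalling can also raise several of these genes in normal oxygen.

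The core that HIF binds reads ACGTG or GCGTG, and it was searched on both strands in the 250 bases before each RefSeq start site (GRCh38.p14). RefSeq windows were matched for 30 of the 32 genes; VEGFA and NDRG1 were not matched. ACGTG, or CACGT when read on the other strand, lay in at least 1 window of 20 of the 30 genes. It lay in 23 of their 57 windows (40.4%) and in 6501 of all 35116 windows (18.5%). GCGTG lay in 31.6% of the windows of these genes, across 15 genes, and in 32.2% of all windows. Windows of 1 gene can share bases, so no test was made, and a match is a description of letters, not of binding. The sequences below belong to genes that the results turn on or that are standard HIF targets, written 5′ to 3′ along the gene, with ACGTG and CACGT in capitals. In the second HK2 window the capitals CACGTG hold both words, which overlap.
SLC2A1 (chr1:42958869-42959118, minus strand): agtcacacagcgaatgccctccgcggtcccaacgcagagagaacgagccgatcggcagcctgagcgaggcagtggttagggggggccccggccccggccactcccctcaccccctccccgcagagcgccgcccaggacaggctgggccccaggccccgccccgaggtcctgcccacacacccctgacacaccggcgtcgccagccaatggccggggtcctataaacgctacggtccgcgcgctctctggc
HK2 first start (chr2:74833877-74834126, plus strand): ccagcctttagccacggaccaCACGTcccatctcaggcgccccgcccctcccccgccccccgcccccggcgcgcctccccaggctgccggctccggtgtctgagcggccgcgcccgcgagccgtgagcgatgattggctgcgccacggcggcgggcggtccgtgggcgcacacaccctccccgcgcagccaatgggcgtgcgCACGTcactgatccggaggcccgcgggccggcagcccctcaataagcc
HK2 second start (chr2:74834920-74835169, plus strand): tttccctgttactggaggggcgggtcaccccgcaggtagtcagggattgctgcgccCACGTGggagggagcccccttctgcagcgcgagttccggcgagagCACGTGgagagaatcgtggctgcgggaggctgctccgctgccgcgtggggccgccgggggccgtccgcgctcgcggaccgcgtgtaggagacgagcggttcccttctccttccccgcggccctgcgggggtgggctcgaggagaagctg
PGK1 (chrX:78103998-78104247, plus strand): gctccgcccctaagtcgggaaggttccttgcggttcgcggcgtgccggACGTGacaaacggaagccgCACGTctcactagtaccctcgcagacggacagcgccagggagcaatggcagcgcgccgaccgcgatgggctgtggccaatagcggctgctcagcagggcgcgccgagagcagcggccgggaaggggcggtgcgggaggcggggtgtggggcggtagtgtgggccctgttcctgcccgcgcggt
CA9 (chr9:35673678-35673927, plus strand): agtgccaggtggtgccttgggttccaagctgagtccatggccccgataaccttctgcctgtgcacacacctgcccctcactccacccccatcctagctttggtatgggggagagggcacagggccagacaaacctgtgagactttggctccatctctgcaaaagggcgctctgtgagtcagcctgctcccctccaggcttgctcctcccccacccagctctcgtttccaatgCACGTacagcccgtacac
ANGPTL4 (chr19:8363905-8364154, plus strand): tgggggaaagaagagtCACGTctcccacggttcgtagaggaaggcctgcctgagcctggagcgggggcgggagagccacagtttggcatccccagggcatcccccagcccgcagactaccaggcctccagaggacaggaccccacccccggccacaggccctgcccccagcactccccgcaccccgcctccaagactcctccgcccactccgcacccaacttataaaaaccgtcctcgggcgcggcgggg
The SLC2A1 window holds neither core. Of ACGTG alone, the HK2 windows hold 2 and 4 matches counted on both strands, and PGK1 has matches starting 202 and 183 bases before its start. The ANGPTL4 and CA9 windows hold 1 such match each, starting 234 and 18 bases before the start.

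NF1, the targeted gene, checked the labels. In CPM, the count of a gene scaled to the library total, it lay between 115.3 and 133.0 in the empty-vector libraries, between 140.6 and 158.7 in parental ones, between 43.6 and 51.3 with guide 1, between 27.0 and 31.4 with guide 2 and between 26.0 and 29.4 with both guides. Library totals ran from 46129559 to 78976917 counts, so 3 counts, taken as the detection floor, equal 0.0380 to 0.0650 CPM. Such floors cover counting error only. Guide 2 replicate 2 stood apart: it scored -91.89 on the first principal component (46.4% of the variance), where the other guide 2 libraries scored 45.96 and 47.8. Parental libraries were also spread on that component, at -47.22, 25.24 and -23.37. Guide 1 replicate 3 scored 35.21, beside 57.29 and 59.33 for the other guide 1 libraries. Calls that change without guide 2 replicate 2 are given below for the 32 genes, and as counts for the other lists against the empty vector. That fit, chosen after the data were seen, tested 17849 genes, CA9 included. In it guide 2 rested on replicates 1 and 3 alone. The spread is estimated over all groups together, so p-values of comparisons without guide 2 changed too. Genes called for guide 1 against the empty vector went from 1026 to 3236. Of the epithelial markers, the keratins KRT5 and KRT18 were at 624.7 and 131.4 CPM or more in every library. Others varied widely: KRT14 ran from 6.44 to 1147 CPM, KRT17 from 24.1 to 1622 CPM, TP63 from 0.0542 to 75.8 CPM and CDH1, which encodes E-cadherin, from 0.0191 to 127.3 CPM. Of the markers of other cell types, CD3E had no count, and PTPRC, CDH5 and COL3A1 reached at most 0.0542, 0.0191 and 0.0553 CPM. DCN was at 55.4 to 1095 CPM, and COL1A1, KDR and CD14 reached 20.0, 10.99 and 6.95 CPM.

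Per kilobase of exon, 5 glycolytic enzymes were the most abundant of the 32 genes as counted. The length is that of all annotated exons merged, not of the RNA expressed, so ranks and isoform shares depend on the annotation. ALDOA ranked only 24, a place left uncertain by exon bases that it shares with another gene. GAPDH, which makes the NADH of glycolysis, had a median of 1218 CPM per kb over the 15 libraries. Next came ENO1 (enolase) at 478.7 CPM per kb, LDHA (lactate dehydrogenase) at 361.5, PKM (pyruvate kinase) at 289.8 and TPI1 (triosephosphate isomerase) at 204.9. ANGPTL4, a secreted inhibitor of lipoprotein lipase, was sixth at 199.6 CPM per kb, and its libraries (103.0 to 233.2) overlapped those of TPI1 (188.2 to 226.5). ENO1 (445.1 to 528.0) and LDHA (352.3 to 495.0) overlapped as well. At the low end stood ENO2, the neuronal enolase, at 0.932 CPM per kb, ANKRD37 at 0.791, EGLN3 at 0.147 and CA9 at 0.0651.

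**Figure D1:**
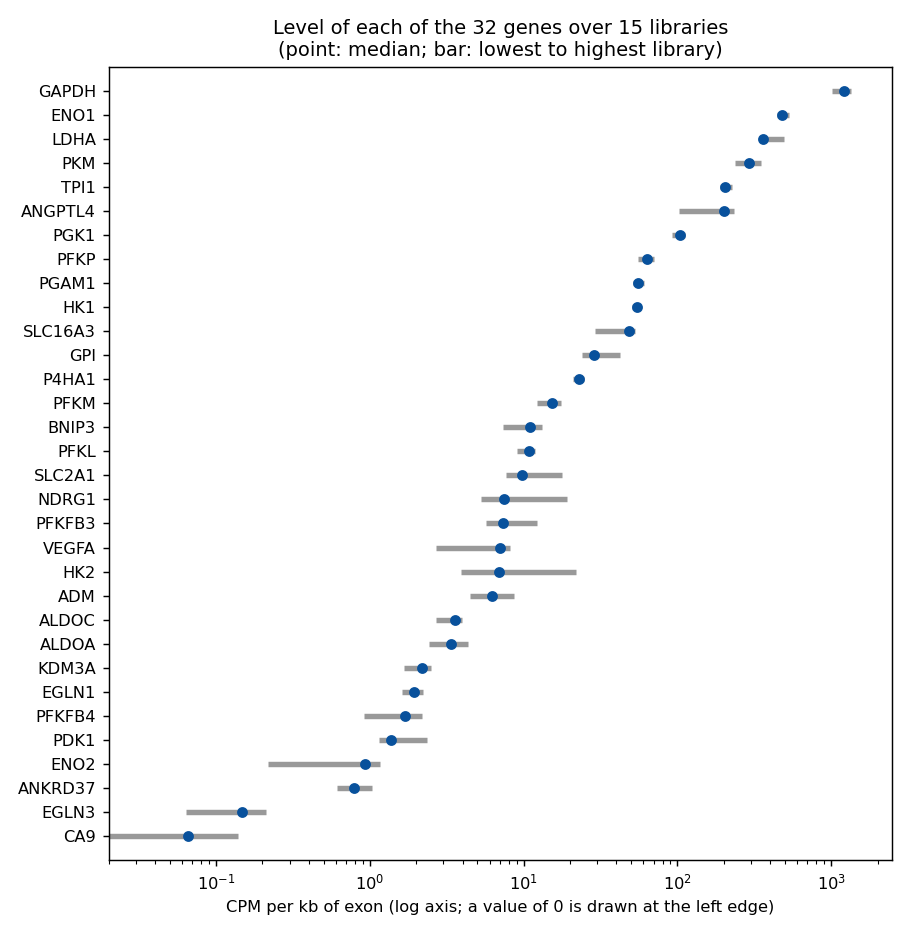
Level of each of the 32 genes in CPM per kb of exon on a log axis; points are medians and bars run from the lowest to the highest of 15 libraries. GAPDH leads at 1218 CPM per kb, CA9 is last at 0.0651, and its bar runs from 0. The next longest bars are those of HK2, ENO2, NDRG1, EGLN3 and VEGFA. The ALDOA level is uncertain, as it shares exon bases with another gene.

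Against the empty vector, 1 of the 31 tested genes passed the test in guide 1 cells (SLC2A1, lower, as were 4.57% of all genes), and none passed in guide 2 cells or in cells with both guides. Across all tested genes 5.88%, 3.94% and 0.962% were called in these comparisons, so a count of 0 or 1 among 31 lies near the background. Parental cells, which were not edited, differed from the empty vector in 1 gene (ANGPTL4, lower), with 4.37% of all genes called and 2.84% called lower. None passed against parental cells in guide 1, guide 2 or both-guide cells (0.149%, 0.0516% and 0.195% of all genes). None passed for the average edited line against the average control (1.51%), for guide 1 against guide 2 (0.0401%), or for both guides against guide 1 (0.275%) or guide 2 (0.149%). A call is an adjusted p under 0.05 in edgeR's quasi-likelihood test with Benjamini-Hochberg adjustment over all genes.

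At an unadjusted edgeR p under 0.05 the counts of the 31 genes were 6 for guide 1, 4 for guide 2 and 4 for both guides against the empty vector, where 21.4%, 18.9% and 14% of all genes passed. They were 7, 1 and 5 against parental cells, in the same order of lines (19.9%, 7.37% and 9.98% of all genes), and 3 for parental cells against the empty vector (19.8%). The average edited line against the average control gave 5 (15.8%). Among the edited lines they were 4 for guide 1 against guide 2 (15.2%), 1 for both guides against guide 1 (13%) and 4 for both guides against guide 2 (5.80%). By DESeq2 the adjusted counts were 2, 1 and 2 for the 3 lines against the empty vector, 0, 0 and 2 against parental cells, 2 for parental cells against the empty vector, 3 for the averages, and 0 between edited lines. The median log2 fold change of the tested genes was -0.05, 0.00 and 0.00 in the 3 lines against the empty vector, beside 0.02, 0.03 and 0.00 for all tested genes. Those 3 comparisons and the parental one share the empty-vector libraries.

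**Figure D2:**
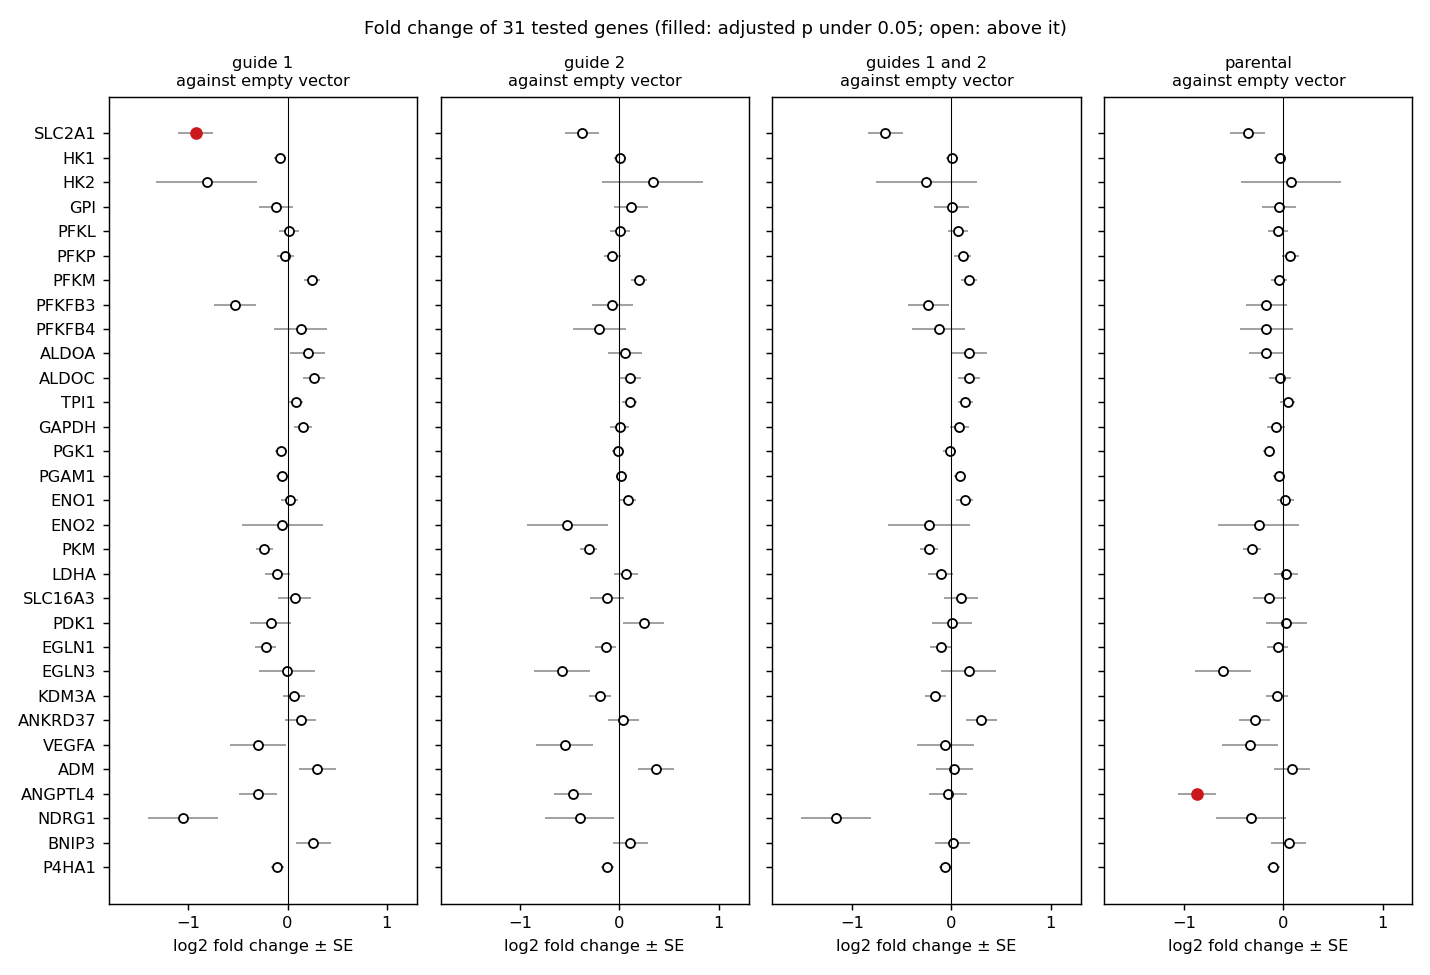
Log2 fold change with its standard error for the 31 tested genes in guide 1, guide 2, both-guide and parental cells, each against the empty vector. The filled points are SLC2A1 with guide 1 (-0.92) and ANGPTL4 in parental cells (-0.87); most other genes lie close to 0.

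Glucose entry held the 1 gene called in an edited line. SLC2A1 (ENSG00000117394, chromosome 1 from 42925375 to 42959176, minus strand, GRCh38) encodes the glucose transporter GLUT1, and its RNA made up 95.6% to 99.4% of the length-scaled sum of SLC2A1 and SLC2A3. Its level was 65.0, 64.2 and 84.2 CPM with the empty vector, 59.8, 50.0 and 60.7 CPM in parental libraries, and 36.0, 37.3 and 40.2 CPM with guide 1. With guide 2 it was 45.5, 75.7 and 45.1 CPM, and with both guides 46.4, 45.3 and 45.4 CPM. All 3 guide 1 libraries lay below every other library, and outside guide 2 replicate 2 (75.7 CPM) every edited library lay below every unedited one. With guide 2 replicate 2 left out, the latter order held for 0.871% of all tested genes. The share for the guide 1 order was not counted.

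SLC2A1 fell by 0.92 on the log2 scale in guide 1 cells against the empty vector (SE 0.175, edgeR adjusted p 0.0118), from 71.1 ± 11.3 to 37.9 ± 2.14 CPM (SD, n = 3 each). The call was lost without empty vector replicate 3 (edgeR adjusted p 0.0578), guide 1 replicate 1 (0.0567) or guide 1 replicate 2 (0.0562). The log2 fold change was -0.66 with both guides (SE 0.174, edgeR adjusted p 0.0940) and -0.38 with guide 2 (SE 0.174, edgeR adjusted p 0.262), neither past the threshold. DESeq2 called SLC2A1 lower with both guides as well as with guide 1. Guide 1 against guide 2 was -0.54 (edgeR adjusted p 0.317), so the lines were not shown to differ. Without guide 2 replicate 2, SLC2A1 fell by 0.93, 0.68 and 0.67 in guide 1, guide 2 and both-guide cells against the empty vector (edgeR adjusted p 0.000138, 0.00229 and 0.00329), and by 0.37 in parental cells (0.0299). In bulk RNA, fewer cells of a type and less RNA per cell cannot be told apart.

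HK2 phosphorylates glucose and is the inducible hexokinase beside the steady HK1. HK1 stayed within 316.6 to 358.6 CPM in the 15 libraries. HK2 (ENSG00000159399, chromosome 2 from 74833981 to 74893359, plus strand) was far more variable: it was 81.7, 29.4 and 48.2 CPM in parental libraries, 47.3, 46.3 and 54.2 CPM with the empty vector, and 24.2, 23.6 and 37.0 CPM with guide 1. With guide 2 it was 28.0, 133.1 and 28.2 CPM, and with both guides 42.0, 41.6 and 42.7 CPM. Guide 2 replicate 2 held 5.64 times the lowest level, and HK2 made up between 6.75% and 28.6% of the length-scaled sum of HK1 and HK2. No HK2 comparison passed with all libraries; guide 1 against the empty vector was -0.82 (SE 0.512, edgeR adjusted p 0.388). Without guide 2 replicate 2 the HK2 value was -0.83 (SE 0.269, edgeR adjusted p 0.0475) there, -0.89 against parental cells (0.0433) and -0.84 for guide 2 against the empty vector (0.0866). GPI, which turns glucose 6-phosphate into fructose 6-phosphate, ran from 255.6 to 454.1 CPM, again highest in guide 2 replicate 2, and passed in no comparison.

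**Figure D3:**
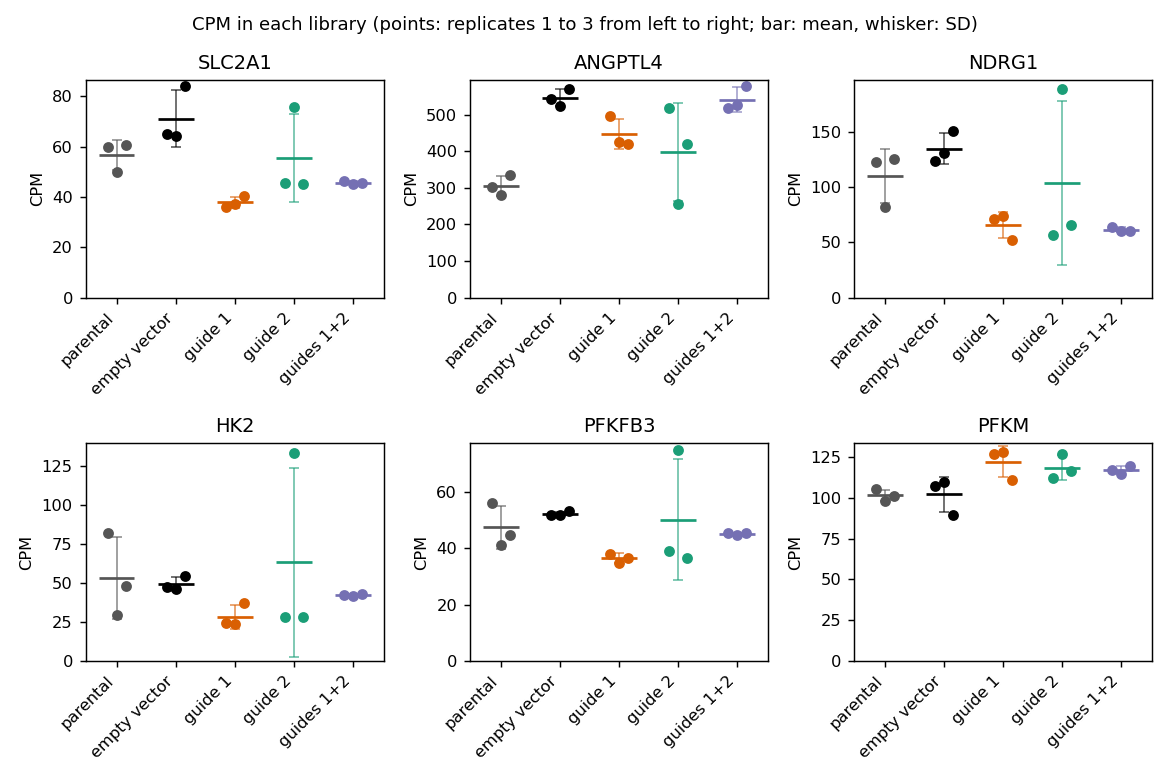
CPM of SLC2A1, ANGPTL4, NDRG1, HK2, PFKFB3 and PFKM by genotype; points are replicates 1 to 3 from left to right, bars are means and whiskers SD. Guide 2 replicate 2 is the high middle point for HK2 (133.1 CPM) and NDRG1 (189.2 CPM) and the low one for ANGPTL4 (255.6 CPM).

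Phosphofructokinase commits sugar to glycolysis, and PFKP made up most of its RNA, 67.3% to 73.9% of the length-scaled sum of the 3 isoforms. PFKM reached 21.1% and PFKL 13.2% of that sum at most. Without scaling by length, mean levels were 304.3 CPM for PFKP, 112.2 CPM for PFKM and 96.0 CPM for PFKL. PFKM (ENSG00000152556, chromosome 12 from 48105139 to 48146404, plus strand) was 105.2, 98.0 and 101.2 CPM in parental libraries, 107.2, 109.5 and 89.7 CPM with the empty vector, 126.6, 128.3 and 111.0 CPM with guide 1, 112.0, 126.9 and 116.4 CPM with guide 2, and 117.2, 114.6 and 119.2 CPM with both guides. The 9 edited libraries (111.0 to 128.3 CPM) lay above the 6 unedited ones (89.7 to 109.5 CPM). PFKM was the 1 gene of the 31 whose edited and unedited libraries did not overlap, as was so for 0.281% of all tested genes, 0.0974% with the edited ones higher. Its log2 fold change, average edited line against average control, was 0.23 (SE 0.0524, edgeR adjusted p 0.0519), just short of the threshold. Without guide 2 replicate 2 it rose by 0.20 (SE 0.0533, edgeR adjusted p 0.0186). DESeq2 with all libraries also called PFKM higher for these averages, as did edgeR without guide 1 replicate 3. Without that guide 1 library, PFKM was called higher with guide 1 against the empty vector and against parental cells too. Calls among all genes for guide 1 against parental cells then went from 26 to 1371. SENP1 on the opposite strand shares 8.58% of the PFKM exon bases, so reads there may be assigned to either where strand was not used.

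The bifunctional enzymes PFKFB3 and PFKFB4 set the level of fructose 2,6-bisphosphate, which activates phosphofructokinase. PFKFB3 was 51.7, 51.7 and 53.1 CPM with the empty vector, 56.1, 41.2 and 44.9 CPM in parental libraries, and 38.0, 34.7 and 36.7 CPM with guide 1. With guide 2 it was 38.9, 75.0 and 36.6 CPM, and with both guides 45.2, 44.5 and 45.5 CPM. Guide 1 libraries lay below all unedited ones, an order whose share over all genes was not counted. Guide 2 replicate 2 was the highest of the 15. PFKFB3 passed in no comparison with all libraries; guide 1 against the empty vector was -0.53 (SE 0.209, edgeR adjusted p 0.162). Without guide 2 replicate 2 it fell by 0.54 with guide 1 (edgeR adjusted p 0.00166) and by 0.50 with guide 2 (0.00734) against the empty vector. PFKFB4 went the other way in that library, at 5.60 CPM, the lowest of a range that reached 13.3 CPM, and passed in no comparison.

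Of the 6 enzymes from aldolase to phosphoglycerate mutase none passed in any comparison with all libraries. TPI1, PGK1 and PGAM1 differed at most 1.20, 1.21 and 1.17 times between any 2 libraries. PGK1, which makes ATP from bisphosphoglycerate, was 508.2 to 614.1 CPM; its window above holds 2 ACGTG matches. GAPDH ran from 3000 CPM in guide 2 replicate 2 to 3988 CPM in guide 1 replicate 2. GAPDH, on leaving out guide 2 replicate 2, rose by 0.23 with guide 1 against parental cells (SE 0.0632, edgeR adjusted p 0.0329). ALDOA was listed at only 9.44 to 17.1 CPM; 42.3% of its exon bases are shared with AC093512.2 on the same strand, itself at most 1.10 CPM, so the ALDOA level is uncertain.

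Of the 6 genes of the last steps, none passed edgeR's test with all libraries. DESeq2 called PKM lower in guide 2 and parental cells against the empty vector. ENO1 ran from 2348 to 2786 CPM and LDHA from 2188 to 3074 CPM, with guide 2 replicate 2 highest for LDHA. PKM was 2830, 2845 and 2981 CPM with the empty vector and 2274, 2454 and 2381 CPM in parental libraries. It was 2485, 2478 and 2454 CPM with guide 1, 2522, 2036 and 2484 CPM with guide 2, and 2448, 2513 and 2565 CPM with both guides. Every empty-vector library was above all 12 others, parental ones included. How many of all genes show this order was not counted. The PKM log2 fold change was -0.32 in parental cells (SE 0.0882, edgeR adjusted p 0.0610) and -0.31 in guide 2 cells (0.0706), and -0.23 and -0.22 with guide 1 and both guides (0.142 and 0.263). With guide 2 replicate 2 left out, all 4 passed, at -0.33, -0.24, -0.25 and -0.24 in that order (edgeR adjusted p 0.00309, 0.0278, 0.0102 and 0.0294).

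SLC16A3, the lactate exporter MCT4, and ENO2 were lowest in guide 2 replicate 2, at 260.3 and 0.924 CPM, against highest levels of 477.3 and 4.95 CPM. PDK1, the kinase that shuts pyruvate dehydrogenase, was highest there at 35.2 CPM, with the other 14 libraries between 17.0 and 27.6 CPM. LDHA made up 98.6% to 99.3% of the length-scaled sum of LDHA and LDHB.

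Neither the HIF hydroxylases, which rise when HIF is active, nor KDM3A and ANKRD37 passed edgeR's test in any comparison with all libraries. DESeq2 called ANKRD37 higher for both guides against parental cells. EGLN1 (PHD2) ran from 11.8 to 16.1 CPM. EGLN3 (PHD3) was near the low end, 0.471 to 1.55 CPM, and KDM3A, a histone demethylase, was 22.2 to 33.5 CPM. ANKRD37 was 1.58 to 2.65 CPM; without guide 2 replicate 2 it rose by 0.59 with both guides against parental cells (SE 0.133, edgeR adjusted p 0.0347) and by 0.42 with guide 1 (0.0489). UFSP2 on the opposite strand shares 35.2% of the ANKRD37 exon bases.

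CA9 and VEGFA are standard reporters of low oxygen. CA9, carbonic anhydrase IX, ranged from 0 to 0.232 CPM, beside a floor of 0.0380 to 0.0650 CPM, and was not tested; ARHGEF39 on the opposite strand, at a mean of 14.5 CPM, shares 38.5% of its exon bases. VEGFA, the blood vessel growth factor, was 111.3 to 117.6 CPM with the empty vector, 62.6, 101.1 and 114.3 CPM in parental libraries and 86.7 to 99.9 CPM with guide 1. It was 103.7, 39.0 and 92.4 CPM with guide 2 and 100.5 to 118.1 CPM with both guides. Guide 2 replicate 2 and parental replicate 1 were the low libraries, and no comparison of VEGFA passed in the main fit. With only the compared groups fitted, VEGFA was called lower with guide 1 against the empty vector. ADM (a vasodilator peptide), BNIP3 (a mitophagy receptor) and P4HA1 (a collagen hydroxylase) spanned 12.1 to 23.7, 39.2 to 69.6 and 64.8 to 76.1 CPM, and none of them passed.

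ANGPTL4 (ENSG00000167772, chromosome 19 from 8363289 to 8374373, plus strand) separated the controls from each other. It was 542.1, 524.4 and 569.8 CPM with the empty vector and 301.1, 280.9 and 334.5 CPM in parental libraries. With guide 1 it was 495.4, 424.4 and 420.6 CPM, with guide 2 518.8, 255.6 and 418.9 CPM, and with both guides 517.8, 525.7 and 578.8 CPM. Parental libraries lay below all edited libraries except guide 2 replicate 2, and both-guide libraries overlapped the empty vector. The share of all genes with such an order was not counted.

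ANGPTL4 fell by 0.87 on the log2 scale in parental cells against the empty vector (SE 0.190, edgeR adjusted p 0.0247), from 545.4 ± 22.9 to 305.5 ± 27.1 CPM (SD, n = 3 each). The call was lost on leaving out any 1 of the 6 parental and empty-vector libraries, with edgeR adjusted p from 0.0556 (empty vector replicate 2) to 0.102 (parental replicate 2). Between these lay parental replicate 3 (0.0578), empty vector replicate 1 (0.0677), parental replicate 1 (0.0709) and empty vector replicate 3 (0.0921). Against parental cells ANGPTL4 was 0.83 with both guides (edgeR adjusted p 0.103) and 0.57 with guide 1 (0.186); against the empty vector these lines had -0.03 (0.974) and -0.30 (0.393). The sign of the guide 1 estimate thus depended on the control. With guide 2 replicate 2 left out, ANGPTL4 rose against parental cells with guide 1 (0.57, edgeR adjusted p 0.00482), guide 2 (0.63, 0.00639) and both guides (0.83, 0.000995), and fell with guide 1 against the empty vector (-0.31, 0.0428).

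NDRG1, a stress-induced gene and metastasis suppressor, had the lowest fold changes of the list against the empty vector in guide 1 and both-guide cells. It was 123.4, 130.5 and 150.8 CPM with the empty vector, 123.1, 82.3 and 125.3 CPM in parental libraries and 70.7, 73.7 and 51.8 CPM with guide 1. With guide 2 it was 57.0, 189.2 and 65.4 CPM, and with both guides 64.3, 60.1 and 60.0 CPM. Apart from guide 2 replicate 2, the highest of all 15, every edited library lay below every unedited one. With that library left out, this order held for 0.871% of all tested genes. The log2 fold change was -1.06 with guide 1 (SE 0.352, edgeR adjusted p 0.100), -0.40 with guide 2 (0.592) and -1.16 with both guides (0.145), none past the threshold. DESeq2 over all 15 libraries called NDRG1 lower with guide 1 and with both guides. With guide 2 replicate 2 left out, NDRG1 fell by 1.07, 1.17 and 1.17 against the empty vector (edgeR adjusted p 0.000711, 0.00144 and 0.00193) and by 0.73, 0.83 and 0.83 against parental cells (0.0141, 0.0206 and 0.0170).

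**Figure D4:**
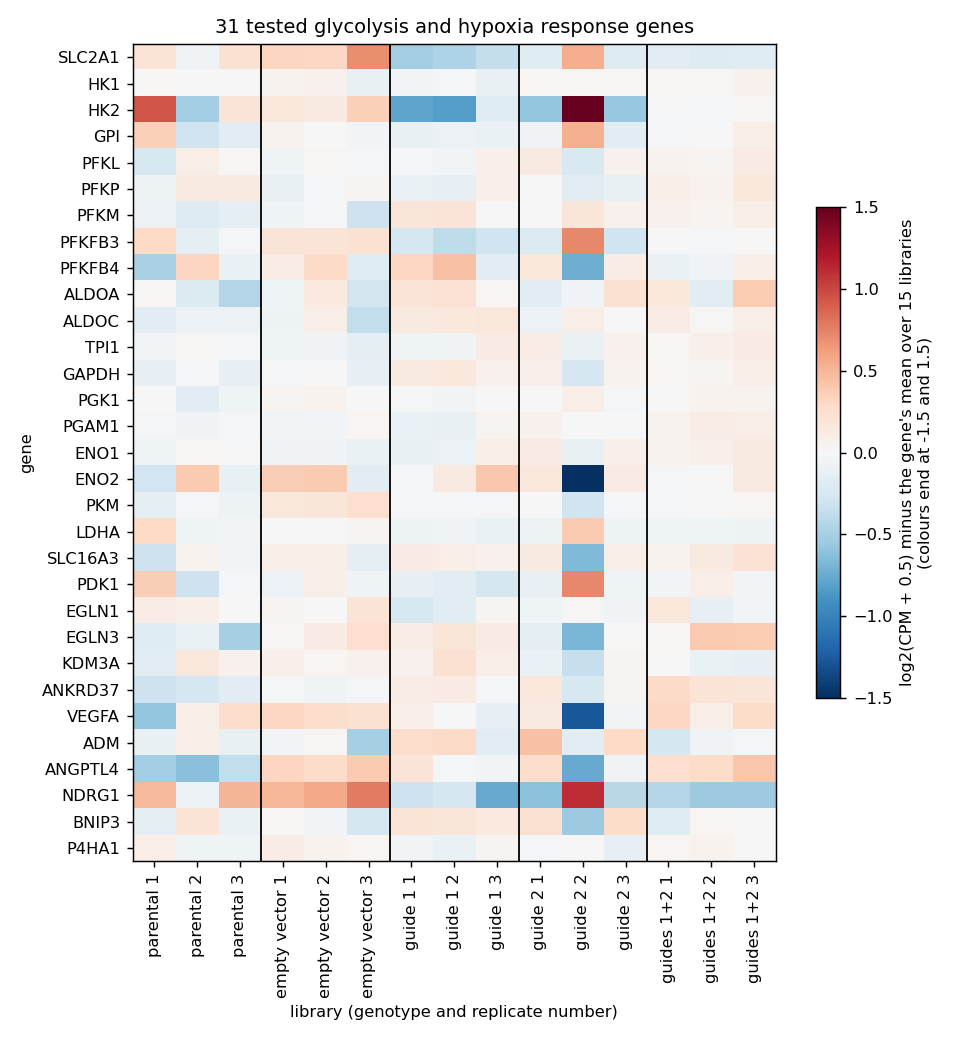
Each row is a tested gene and each column a library; colour is log2(CPM + 0.5) minus the gene's mean over 15 libraries. The column of guide 2 replicate 2 holds the strongest colours, red for HK2 and NDRG1 and blue for ENO2 and VEGFA.

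Guide 2 replicate 2 set the highest or lowest level of 18 of the 31 genes (58.1%), 7 highest and 11 lowest, as it did for 51.6% of all tested genes. HK2, GPI, PFKFB3, PGK1, LDHA, PDK1 and NDRG1 were the 7. The genes thus did not move in 1 direction in that library, since GAPDH, PKM, SLC16A3, VEGFA, ANGPTL4 and BNIP3 were among the 11. Leaving it out raised the number of calls among all genes as well. Against the empty vector, 6 of 32 genes then passed with guide 1, all lower (18.1% of all genes in either direction, 11.7% lower); they were SLC2A1, HK2, PFKFB3, PKM, ANGPTL4 and NDRG1. Guide 2 had 4 (14.5% of all genes in either direction, 9.42% lower), both guides 3 (6.7% and 4.99%) and parental cells 3 (13.9% and 8.68%), all lower.

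Against parental cells without that library, guide 1 gave 8 (14.5% of all genes, 7.05% higher and 7.47% lower), of which PFKM, GAPDH, ANKRD37 and ANGPTL4 were higher and SLC2A1, HK2, PFKFB3 and NDRG1 lower. Guide 2 gave 2 (5.96%), ANGPTL4 higher and NDRG1 lower (2.91% and 3.05% of all genes). Both guides gave 3 (2.62%), ANKRD37 and ANGPTL4 higher and NDRG1 lower (1.55% and 1.06%). For the average edited line against the average control 8 passed (18%), 4 in each direction (6.63% of all genes higher and 11.4% lower). None passed between edited lines: guide 1 against guide 2 (0.162% of all genes), both guides against guide 1 (4.55%) or against guide 2 (1.83%). The CPM ranges of the 8 remaining edited and the 6 unedited libraries did not overlap for 5 of the 31 genes, SLC2A1 and NDRG1 lower and PFKM, GAPDH and ANKRD37 higher, beside 1.64% of all genes (0.871% lower and 0.773% higher).

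Epithelial markers were high in several of the same libraries. The summed CPM of 6 basal epithelial markers (such as KRT5 and KRT14) was 3828 to 5787 with the empty vector, 1733 to 5343 in parental libraries, 1257 to 2032 with guide 1, 1402 to 9442 with guide 2 and 1962 to 2270.0 with both guides. Guide 2 replicate 2 was the library at 9442, and parental replicate 1 the one at 5343. Parental replicate 2, at 1733, lay within the guide 1 range. The sum of 7 general epithelial markers was 934.6 to 1474 with the empty vector, 485.1 to 872.8 in parental libraries, 385.5 to 406.1 with guide 1, 429.3 to 1290 with guide 2 and 657.0 to 719.1 with both guides. The 7 fibroblast markers summed to 103.4 to 146.0 with the empty vector, 108.1 to 138.8 in parental libraries, 437.3 to 1105 with guide 1, 62.3 to 407.3 with guide 2 and 232.1 to 257.0 with both guides. DCN gave most of that, at up to 1095 CPM, while COL3A1 was at 0 in most libraries. The 5 endothelial markers summed to at most 13.3 CPM and the 5 leukocyte markers to at most 7.01 CPM in any library. The part of these markers in the values of SLC2A1, HK2 and NDRG1 was not tested. The mitochondrial genome took 2.85% to 4.92% of counts.

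**Figure D5:**
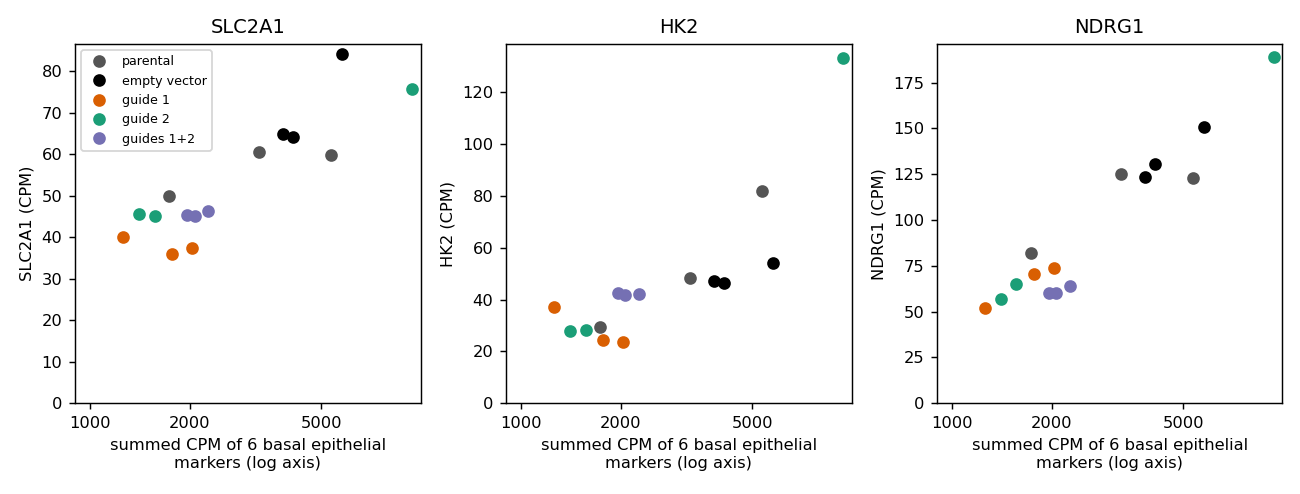
CPM of SLC2A1, HK2 and NDRG1 in each library against the summed CPM of 6 basal epithelial markers (log axis), coloured by genotype. The guide 2 library at a marker sum of 9442 has 75.7, 133.1 and 189.2 CPM of the 3 genes. Guide 1 libraries and the other guide 2 libraries sit at the lower left. Parental replicate 2 has a marker sum of 1733 and the lowest levels of the 3 genes among unedited libraries (50.0, 29.4 and 82.3 CPM). For NDRG1 the both-guide libraries (60.0 to 64.3 CPM) are within the guide 1 range.

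Of 16 tested HIF subunits and regulators, 1 was called in each of guide 1, guide 2 and parental cells against the empty vector, all lower (4.57%, 2.73% and 2.84% of all genes), and none with both guides (0.962% in either direction). SIAH2, a ubiquitin ligase for the hydroxylases, fell by 0.62 with guide 1 (SE 0.149, edgeR adjusted p 0.0292). EPAS1, which encodes HIF-2 alpha, fell by 0.75 with guide 2 (edgeR adjusted p 0.00398) and by 0.75 in parental cells (0.00399), against the empty vector; it was 208.3 ± 16.9, 211.1 ± 29.2 and 347.0 ± 17.4 CPM in these groups (SD, n = 3 each). HIF1A was 630.0 ± 20.6 CPM with guide 1 and 503.0 ± 54.5 CPM with the empty vector (SD, n = 3 each). With guide 2 replicate 2 (294.5 CPM of HIF1A) left out, 2 genes were higher and 2 lower with guide 1 (6.47% and 11.7% of all genes), HIF1A and CITED2 against ARNT2 and SIAH2. With guide 2, HIF1A was higher and EPAS1, ARNT2 and SIAH2 lower (5.04% and 9.42%), and with both guides HIF1A was higher and EPAS1 and SIAH2 lower (1.71% and 4.99%). EPAS1 and SIAH2 were lower in parental cells (8.68%).

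Among 36 other tested HIF targets, 2 rose and 3 fell with guide 1 against the empty vector, beside 1.31% of all genes higher and 4.57% lower. With guide 2, 3 fell (2.73% of all genes lower), with both guides 1 fell (0.693%), and in parental cells 2 rose and 3 fell (1.53% higher and 2.84% lower). CA12, a membrane carbonic anhydrase like CA9, fell in all 3 edited lines, by 1.5, 1.23 and 1.5 (edgeR adjusted p 0.0173, 0.0457 and 0.0432), from 180.9 ± 12.1 CPM to 64.6 ± 9.47, 78.4 ± 39.6 and 65.1 ± 1.96 CPM (SD, n = 3 each). Parental cells had 83.7 ± 32 CPM of CA12, which passed as lower only with guide 2 replicate 2 left out. BHLHE40, a transcriptional repressor, fell by 0.87 with guide 1 and 0.92 with guide 2, and by 1.29 in parental cells (edgeR adjusted p 0.0143, 0.0131 and 0.00319). P4HA2, a collagen hydroxylase, fell by 0.50, 0.68 and 0.53 in the same groups (0.0393, 0.0137 and 0.0381). DDIT4, an inhibitor of mTORC1, rose by 0.61 with guide 1 and 0.90 in parental cells (0.0216 and 0.00533), and ZNF395 by 0.49 and 0.86 (0.0455 and 0.00514). BHLHE41 fell by 1.16 in parental cells (0.0279). The counts on leaving out guide 2 replicate 2, higher and lower against the empty vector, were as follows. Guide 1 had 4 and 6 (6.47% and 11.7% of all genes), and guide 2 had 3 and 7 (5.04% and 9.42%). Both guides had 0 and 5 (1.71% and 4.99%), and parental cells had 3 and 9 (5.24% and 8.68%).

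Of 16 tested glycolytic isoforms and transporters outside the 32 genes, SLC2A6, a minor hexose transporter, fell by 2.59 with guide 1 against the empty vector (SE 0.359, edgeR adjusted p 0.00312) and by 2.11 against parental cells (0.0460). Its level was 0.517, 0.393 and 0.411 CPM with guide 1, 2.22, 2.16 and 3.47 CPM with the empty vector and 1.43, 3.72 and 1.56 CPM with guide 2. ADPGK, an ADP-dependent glucokinase, fell by 0.27 in parental cells against the empty vector (edgeR adjusted p 0.0410). Against the empty vector, 4.57% of all genes were lower with guide 1 and 2.84% in parental cells. For guide 1 against parental cells, 0.149% were called in either direction. With all libraries none of this list passed with guide 2 or both guides against the empty vector. On leaving out guide 2 replicate 2, SLC2A3 and HKDC1 were higher and SLC2A6 lower with guide 2 (5.04% and 9.42% of all genes). SLC2A12 was then lower with both guides (4.99%). Of 17 tested, guide 1 then had 2 higher and 4 lower (6.47% and 11.7%). Parental cells had 2 higher and 3 lower (5.24% and 8.68%).

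With all libraries, no gene passed among 13 of pyruvate entry into mitochondria or 7 of the pentose phosphate pathway in any edited line or parental cells against the empty vector; their medians with guide 1 were -0.07 and 0.07. On leaving out guide 2 replicate 2, PDK4 was higher and PDP1 and MPC1 lower with guide 1 (6.47% and 11.7% of all genes). MPC1 was then lower with guide 2 (9.42%), and PDK3 was higher with both guides (1.71%). TALDO1, of the pentose phosphate pathway, was then higher with guide 2 (5.04%) and lower in parental cells (8.68%). Of 10 proliferation genes, TOP2A and CDK1 rose with guide 2 (0.81 and 0.86, edgeR adjusted p 0.0445 and 0.0211) and in parental cells (0.91 and 0.73, 0.0264 and 0.0399) against the empty vector, beside 1.2% and 1.53% of all genes higher. On leaving out guide 2 replicate 2, 3 were higher with guide 2 (5.04% of all genes). With both guides 1 was higher (CDK1, beside 1.71%), and 7 were higher in parental cells (5.24%).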

How the data were processed

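The authors deposited whole-number read counts per gene and, beside them, CPM, each without pooling of replicates; the CPM equalled counts divided by library totals to within 4.91e-11. Per the submitters' processing notes, Trim Galore 0.6.0, STAR 2.7.8a and GRCh38 were used. The counting program, annotation and use of strand are not given in the sources used here. Columns were matched to libraries by name.

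The test was edgeR 4.0.16 (R 4.3.3). After filterByExpr on genotype and TMM scaling, counts were fitted in 1 quasi-likelihood model over 15 libraries (10 residual degrees of freedom), with two-sided tests. The SE is the absolute log2 fold change over the square root of F. Alternatives were RLE scaling, no filter, a replicate block, DESeq2 1.42.0, only the compared groups, and each library left out; the removal of guide 2 replicate 2 from all fits was added after the data were seen. The procedure was tested on simulated data. Exon lengths, positions and overlaps came from GENCODE on GRCh38, and promoter windows from RefSeq. Tables and plots were made with Python 3.11.15, pandas 2.3.3, numpy 2.4.6 and matplotlib 3.10.9.

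The 32 genes and the other lists were chosen with earlier results of these data known. Of the cell type markers, 2 are not reported here and are left out of the sums. All 32 genes are accounted for; of the other lists, the called genes are named, at most 4 per list and comparison, beside which ZNF395 with guide 1 and P4HA2 in parental cells were added. Genes called only without guide 2 replicate 2 were named after their values were seen, as was PFKM.

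The labels number the replicates 1 to 3. Deviations of same-numbered libraries correlated with r from 0.136 to 0.280 for guide 1 and the empty vector, where every pair was above 0.1. Over all groups the mean was -0.0497 for 30 same-numbered pairs and 0.0276 for 60 pairs of other numbers. The main fit did not use the numbers, and a block on them was fitted only as an alternative.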

Additional observations from a re-analysis of the deposited data

Results flagged for a closer look

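Among NF1 and the pathway lists described here (cell type markers aside), 2 genes differed between edited lines by a direct test. SLC2A6, a hexose transporter, had a log2 fold change of -2.34 for guide 1 against guide 2 (SE 0.357, edgeR adjusted p 0.0481) and of 2.56 for both guides against guide 1 (SE 0.359, edgeR adjusted p 0.0127). All 3 guide 1 libraries were lower than the other 12, an order whose share over all genes was not counted. NF1, the targeted gene, had 0.69 for guide 1 against guide 2 (SE 0.0880, edgeR adjusted p 0.0121) and -0.76 for both guides against guide 1 (SE 0.0882, edgeR adjusted p 0.00411), so guide 1 cells kept the most NF1 RNA of the edited lines. None of the 31 tested glycolysis and hypoxia response genes differed between edited lines at this threshold in the main fit.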

How the results depend on the processing

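With the replicate number as a block, SLC2A1 with guide 1 was -0.92 (edgeR adjusted p 0.0294) and ANGPTL4 in parental cells -0.87 (0.0350), against the empty vector, and no call among the 31 genes changed. RLE scaling changed no call. Leaving out 1 library gave 0 to 2 calls for guide 1 against the empty vector (1 with all), 0 to 4 for guide 2, 0 in each case for parental cells (1 with all), 0 to 1 for guide 1 and 0 to 2 for guide 2 against parental cells, and 0 to 8 for the average edited line against both controls. The 4, the 2 and the 8 came without guide 2 replicate 2.

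Counts that moved under other settings were as follows. DESeq2 called 2, 1 and 2 genes for guide 1, guide 2 and both guides against the empty vector. They were SLC2A1 and NDRG1 with guide 1 and with both guides, and PKM with guide 2, all lower. For both guides against parental cells it called 2, ANKRD37 and ANGPTL4, higher. For parental cells against the empty vector it called 2, ANGPTL4 and PKM, lower. For that average it called 3, PFKM higher and SLC2A1 and NDRG1 lower. With only the compared groups fitted, 5 were lower with guide 1 against the empty vector, namely SLC2A1, HK2, PFKFB3, VEGFA and NDRG1. With both guides 5 were lower, namely SLC2A1, HK2, PFKFB3, PKM and NDRG1. Among all genes 2608 and 3054 were called in these 2 fits. For both guides, 1 was higher against parental cells (ANGPTL4) and 2 against guide 1 (SLC2A1 and PFKFB3). With no filter, 1 was called for both guides against parental cells and 1 for that average. With guide 2 replicate 2 removed from all fits, guide 1 and both guides gave 6 and 3 against the empty vector and 8 and 3 against parental cells, and parental cells gave 3. The cause was not tested.

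The median log2 fold change of the genes, near 0, turned from 0.0017 to -0.0091 (RLE), -0.0034 (no filter), -0.0108 (DESeq2) and -0.0112 (compared groups only) for guide 2 against the empty vector. For both guides it turned from 0.0026 to -0.0061 (RLE), -0.0055 (DESeq2), -0.0116 (compared groups only) and -0.0113 (without guide 2 replicate 2). With 3 libraries a group, differences of several standard errors could miss the threshold, as NDRG1 with guide 1 did (-1.06, SE 0.352); CA9 was too low to test.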
